A study of Saccharomyces cerevisiae with 19 samples.

Results

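The genes described here encode the enzymes with which budding yeast removes superoxide and hydrogen peroxide, together with 1 helper protein. They are the superoxide dismutase genes SOD1 and SOD2, the copper chaperone gene CCS1, the catalase genes CTT1 and CTA1, and the cytochrome c peroxidase gene CCP1. All 6 were found by symbol in the array annotation, each with a single probe set that carries no mark of shared sequence, out of 5449 genes measured. Their systematic names are YJR104C for SOD1, YHR008C for SOD2, YMR038C for CCS1, YGR088W for CTT1, YDR256C for CTA1 and YKR066C for CCP1. The series followed 2 strains of Saccharomyces cerevisiae in SDC medium at 30 °C with shaking, from cultures diluted out of saturated overnight cultures, with no other treatment. One strain is labelled wild type. The other is labelled as a mutant of SCH9, a protein kinase of nutrient signalling, and named in the series title as a deletion and as long-lived. The labels do not name the strain background. Total RNA was taken every 12 h and hybridized to Affymetrix Yeast 2.0 arrays, 1 array per strain and time, giving 10 wild-type arrays from 12 to 120 h and 9 mutant arrays from 12 to 108 h; the authors set the mutant array of 120 h aside on its quality, and it is not analysed here.

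Superoxide dismutases turn superoxide into oxygen and hydrogen peroxide, and catalases and peroxidases then break the peroxide down. Sod1, the abundant copper and zinc enzyme of the cytosol and the mitochondrial intermembrane space, receives its copper from Ccs1, while Sod2 is the manganese enzyme of the mitochondrial matrix. Ctt1 is the cytosolic catalase and a classical gene of the general stress response. Cta1 is the catalase of peroxisomes and mitochondria, repressed by glucose. Ccp1 sits in the mitochondrial intermembrane space and uses electrons from cytochrome c to reduce peroxide; both catalases and Ccp1 carry heme. Yeast cultures on glucose use up the sugar, pass through the diauxic shift to respiration and then stop dividing, and these enzymes are known for their part in survival during that stationary phase.

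All signals below are log2 values of a probe set after quantile normalization across the 19 arrays, unless they are called deposited. Differences between strains are mutant minus wild type at the same time. Each time was measured on 1 array per strain, so every test measures the spread over time points and not over independent cultures, and so few arrays limit how precise any value is. To pass, a gene needed a p under 0.05 in limma after Benjamini-Hochberg adjustment across all 5449 genes. Probe sets differ in response, so signals are not read as relative amounts of different transcripts.

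SCH9 itself was lower in the mutant by 0.52 ± 0.39 (SD, n = 9; exact permutation p = 0.00781) and lower at 8 of the 9 shared times, with mutant signals of 10.07 to 10.59. Whether its probe set lies inside the deleted part is not known here, so this signal does not check the label. URA3, a common deletion marker, was higher in the mutant at 9 of 9 times. RNA quality differed between the strains: the deposited signal of the 18S ribosomal RNA 3' probe set ran from 8.03 to 14.64 in the wild type, with 8.62 at 48 h and 10.54 by 60 h, and from 6.69 to 7.68 in the mutant. The control score, the mean 3' minus 5' difference of 10 control pairs, ran from 0.80 to 1.44 in the wild type and was highest there at 120 h. In the mutant it ran from 0.73 to 1.06 and was 1.06 at 24 h. The part of these differences in the results below was not tested beyond the alternatives given.

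Over the 9 shared times SOD2 and CCS1 were higher in the mutant and CTA1 and CCP1 lower, while SOD1 and CTT1 did not pass. Those 4 of 6 stand against 59.2% of all genes (32.4% higher and 26.8% lower), so the share of the 6 that passed is near that of the genome. The passing share was 58.5% in the deposited values, 59.5% after median centring and 58.1% after cyclic loess. Of the genes that passed, 54.8% were higher in the mutant, against 66.3%, 38.8% and 49.9% under those scalings, and the median difference of all genes was 0.03, against 0.17, -0.09 and -0.01. The same sign at all 9 times was seen for SOD2 and CCP1, 2 of the 6, against 28.5% of all genes. The time courses differed in kind: mutant SOD2 stood above the wild type from 24 h on, mutant CCP1 below it from 36 h on, and mutant CTT1 above it at 24 and 36 h and below it at every other shared time.

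**Figure D1:**
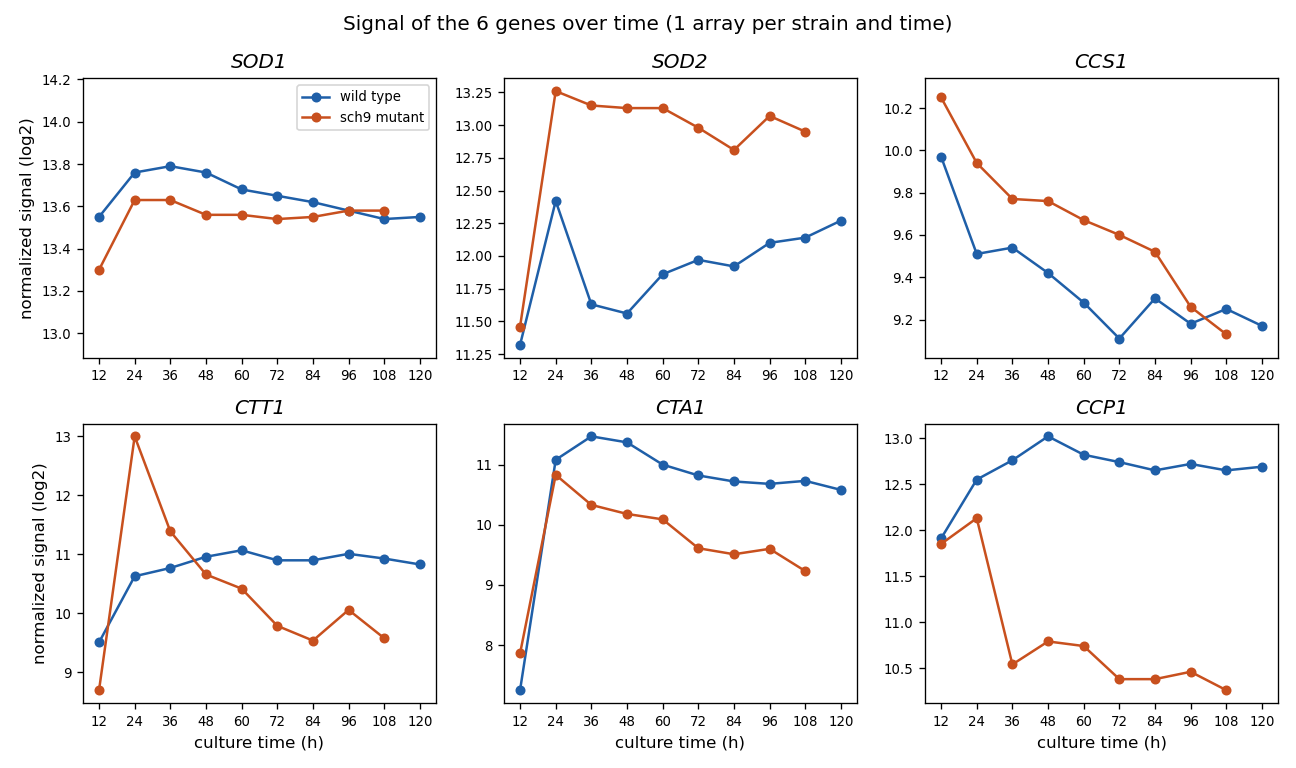
Normalized log2 signal (vertical axes, scaled separately for each gene) against culture time in hours for the 6 genes. Each point is 1 array, blue for the wild type (10 arrays) and orange for the sch9 mutant (9 arrays). CTT1 in the mutant stands at 13.00 at 24 h and at 9.58 at 108 h, and CCP1 in the mutant lies between 10.26 and 10.79 from 36 h on, below every wild-type array.

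SOD2, the matrix enzyme, was 1.00 higher in the mutant over the shared times (SE 0.13, adjusted p = 7.83e-05; 2.01-fold). In 12 h intervals from 12 to 120 h, the wild-type signals were 11.32, 12.42, 11.63, 11.56, 11.86, 11.97, 11.92, 12.10, 12.14 and 12.27. Those of the mutant, from 12 to 108 h, were 11.46, 13.26, 13.15, 13.13, 13.13, 12.98, 12.81, 13.07 and 12.95. The strains were close at 12 h. The strains did not overlap from 36 h on, and the lowest mutant value after 12 h was above the highest wild-type value.

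The gap in SOD2 was widest at 48 h, where the mutant was 1.57 higher (2.98-fold), and stood at 0.82 at 108 h. This timing depended on the scaling: the deposited gap was widest at 24 h (1.17), with 0.65 at 48 h and 0.52 at 108 h. From 36 h on the wild-type signal rose by 0.19 per day (SE 0.03, adjusted p = 0.000347), while the mutant slope of -0.08 per day did not pass (adjusted p = 0.168). The slopes differed by -0.27 per day (SE 0.05, adjusted p = 0.00132). These slopes from 36 h on were fitted to the quantile-normalized values alone. Under the other scalings the strain difference was 0.73 on the deposited scale, 0.48 after median centring and 0.99 with cyclic loess, and it passed in each. Restricted to 12 to 48 h, when the wild-type 18S 3' signal was at most 8.70 but the 18S 5' signal had reached 13.78 by 48 h, against a mutant maximum of 12.10, it was 1.02 and did not pass (adjusted p = 0.0634), and only 228 genes in all passed with those 8 arrays.

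SOD1, the cytosolic enzyme, had a probe set signal ranked between 8 and 55 of 5449 in every array, at the top of the signal range, which matters for the scaling and is no measure of transcript amount. Wild-type signals from 12 to 120 h were 13.55, 13.76, 13.79, 13.76, 13.68, 13.65, 13.62, 13.58, 13.54 and 13.55. Mutant signals were 13.30 in the first array, 13.63 in the next 2 and between 13.54 and 13.58 from 48 h on. The ranges overlapped, and the strain difference of -0.11 (SE 0.05, adjusted p = 0.0915) did not pass.

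This SOD1 result depended on the scaling. Quantile normalization gives genes of equal rank the same value on every array, which leaves a gene near the top little room to move. In the deposited values SOD1 was 0.60 lower in the mutant (a log2 difference of -0.60, SE 0.17, adjusted p = 0.00876), and with median centring the difference was -0.86 (SE 0.20, adjusted p = 0.00265). The deposited signal ran from 13.86 to 14.24 in the wild type and from 12.96 to 13.31 in the mutant from 36 h on, with no overlap. The order was the other way at 24 h, with 13.61 for wild type and 14.14 for mutant. With cyclic loess the difference was -0.01 (adjusted p = 0.871). Across the 4 scalings the estimates ran from -0.86 to -0.01.

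CCS1, the chaperone that loads copper into Sod1, was modestly higher in the mutant, by 0.26 (SE 0.07, adjusted p = 0.00761; 1.2-fold). In time order its wild-type signals were 9.97, 9.51, 9.54, 9.42, 9.28, 9.11, 9.30, 9.18, 9.25 and 9.17. The mutant gave 10.25, 9.94, 9.77, 9.76, 9.67, 9.60, 9.52, 9.26 and 9.13 over its 9 times. The mutant was higher at 8 of 9 times, and at 108 h it was lower, at -0.12, although 0.36 higher in the deposited values. The call was kept under all 3 other scalings, with differences of 0.19 to 0.55, but not without time blocks (adjusted p = 0.142) or from 12 to 48 h (0.32, adjusted p = 0.117).

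CCS1 was the member whose slope over all times passed as negative in both strains. In the wild type its lowest value came at 72 h, and the change between the first 2 arrays alone was -0.46. In the mutant each array was below the one before. In the deposited values that first wild-type change was 0.13, and the lowest wild-type value, 8.87, came at 120 h. The deposited mutant signal was 9.32 at 96 h and 9.36 at 108 h. After quantile normalization the slope of CCS1 was -0.14 per day in the wild type (SE 0.03, adjusted p = 0.0122) and -0.24 per day in the mutant (SE 0.04, adjusted p = 0.000684). A slope passed for 11.3% of all genes in the wild type, 6.46% falling, and a falling slope passed for 4.64% in the mutant. The mutant's steeper slope did not pass as a difference over all times (-0.10, adjusted p = 0.3) and passed narrowly from 36 h on (-0.13, adjusted p = 0.0487). On the deposited scale both slopes over all times passed, at -0.197 in the wild type and -0.203 in the mutant. Their difference there was -0.006 (adjusted p = 0.97). With the control score in the model the wild-type slope was -0.10 and did not pass (adjusted p = 0.742).

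CTT1, the cytosolic catalase, showed the sharpest single event among the 6. Its mutant signals, in 12 h intervals from 12 to 108 h, were 8.70, 13.00, 11.39, 10.66, 10.42, 9.79, 9.54, 10.06 and 9.58. The wild-type signals up to 120 h were 9.51, 10.63, 10.77, 10.96, 11.07, 10.90, 10.90, 11.01, 10.93 and 10.83. The wild type stayed at 10.92 ± 0.10 (SD, n = 8 times from 36 h on), while the mutant peaked at 24 h and came down to 10.20 ± 0.67 (SD, n = 7 times).

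At 24 h CTT1 was 2.37 higher in the mutant (5.18-fold), a value that 23 of the 5449 genes, CTT1 included, equalled or passed. A difference of at least 1 in either direction at 24 h was found for 8.92% of all genes. The mutant signal was 4.31 higher at 24 h than at 12 h (19.8-fold), against 1.13 in the wild type (2.18-fold). A rise of at least 1 over that interval was seen for 3 of the 6 genes in each strain, SOD2, CTT1 and CTA1, against 13.9% of all genes in the mutant and 11.0% in the wild type. Between 24 and 36 h it dropped by 1.62 in the mutant, and drops of at least 1 at that step were found for 56 genes (1.03%), with CCP1 also among them, and for 0.202% of genes in the wild type, none of the 6 among them. All of this rests on 1 mutant array at 24 h, where the 3' minus 5' score was the highest of the mutant series and the 18S 5' signal, at 9.73, the lowest; their part was not tested. The deposited values gave 4.53 for the same rise and -1.92 for the same drop.

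Because the sign of the difference changed, the mean strain difference of CTT1 was -0.40 with a large error (SE 0.34, adjusted p = 0.338). In time order the differences were -0.81, 2.37, 0.61, -0.30, -0.65, -1.11, -1.36, -0.95 and -1.35. Without 24 h CTT1 passed as lower in the mutant, at -0.74 (adjusted p = 0.00743), where 61.7% of all genes passed, and from 36 h on at -0.73 (adjusted p = 0.0129), where 69.2% did. From 36 h on the mutant signal fell by 0.54 per day (slope -0.54, SE 0.09, adjusted p = 0.000641), while the wild-type slope was 0.00 (SE 0.07, adjusted p = 0.976). The difference of these slopes was -0.54 (SE 0.11, adjusted p = 0.00285). With the control score in the model the strain difference over all times turned to 0.58 (adjusted p = 0.0329).

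**Figure D2:**
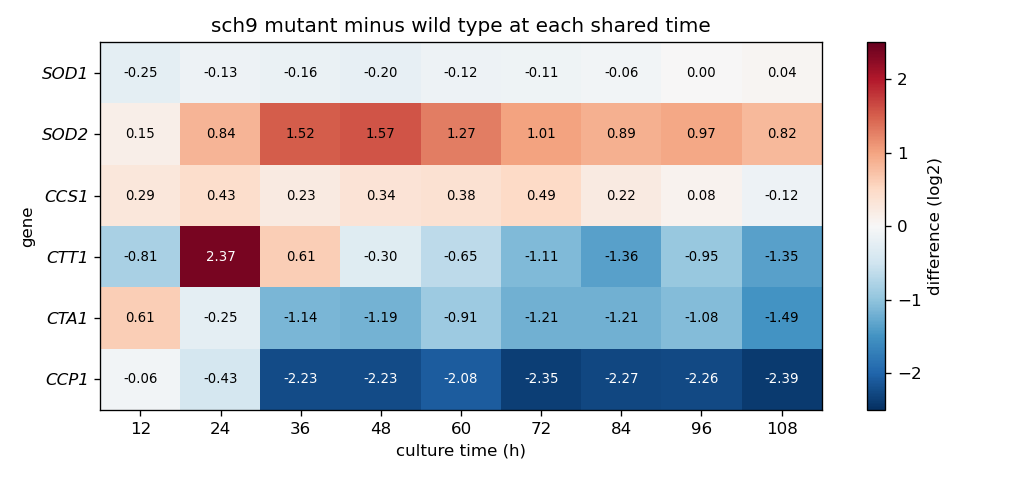
Difference of the normalized log2 signal, sch9 mutant minus wild type, for each of the 6 genes (rows) at each of the 9 shared times (columns, hours). Red is higher and blue lower in the mutant, and the printed number is the difference between 2 arrays. CTT1 goes from 2.37 at 24 h to -1.35 in the last shared pair, SOD2 is positive at all times, and CCP1 lies at -2.08 or lower from 36 h on.

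CTA1, the peroxisomal and mitochondrial catalase, had the largest step of the 6 between the 12 h arrays and all later ones, averaged over the strains; from 12 to 24 h in the mutant CTT1 changed more. From 12 to 120 h the wild-type arrays gave 7.25, 11.08, 11.47, 11.37, 11.00, 10.82, 10.72, 10.68, 10.73 and 10.58. From 12 to 108 h the mutant arrays gave 7.86, 10.83, 10.33, 10.18, 10.09, 9.61, 9.51, 9.60 and 9.23. From 12 to 24 h that is 14.2-fold in the wild type and 7.81-fold in the mutant. In the wild type 28 genes, CTA1 included, rose at least as much over that interval. Both strains were low only at 12 h, and from 36 h on every mutant value was below every wild-type value.

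Over the shared times CTA1 was 0.87 lower in the mutant (a log2 difference of -0.87, SE 0.19, adjusted p = 0.00205). From 36 h on the mean difference was -1.18 ± 0.18 (SD, n = 7), or 2.26-fold lower. The difference passed under all 3 other scalings, at -0.81 to -1.06, but the deposited values of the strains overlapped from 36 h on. It did not pass without time blocks (adjusted p = 0.147), where the 12 h arrays count as spread, or with the control score in the model (-0.52, adjusted p = 0.0630), and from 12 to 48 h it was -0.49 (adjusted p = 0.307). CTA1 declined after its peak in both strains: from 36 h on the slope was -0.25 per day in the wild type (SE 0.04, adjusted p = 0.000348) and -0.36 in the mutant (SE 0.05, adjusted p = 0.000191). These slopes did not pass as different (-0.11, SE 0.06, adjusted p = 0.205).

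CCP1, the cytochrome c peroxidase, had the largest strain difference of the 6, at -1.81 (SE 0.26, adjusted p = 0.000144; 3.51-fold lower in the mutant). Wild-type signals in time order were 11.91, 12.55, 12.76, 13.02, 12.82, 12.74, 12.65, 12.72, 12.65 and 12.69. The mutant began close to these, with 11.85 and 12.13 in the first 2 arrays, and then gave 10.54, 10.79, 10.74, 10.38, 10.38, 10.46 and 10.26. The drop between 24 and 36 h was 3.01-fold, and the wild type did not show it.

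From 36 h on the CCP1 difference was nearly constant, at -2.26 ± 0.10 (SD, n = 7; 4.78-fold lower), with single times between -2.08 and -2.39. In the deposited values the same mean was -2.41 ± 0.18. The call held under all 3 other scalings (-1.71 to -2.12), with each time left out (-2.03 to -1.74), without the times from 84 h on and with the control score in the model. It was lost in the 12 to 48 h window, at -1.24 (adjusted p = 0.104). The mutant slope over all times was -0.40 per day (SE 0.09, adjusted p = 0.00675), a call lost on the deposited scale (-0.37, adjusted p = 0.0709), and differed from that of the wild type by -0.48 (SE 0.11, adjusted p = 0.0310), a difference that passed for 2.86% of all genes, 1.74% being more negative in the mutant. From 36 h on the slopes no longer passed as different (-0.07, adjusted p = 0.411). Leaving out any one of 24, 60, 72, 84, 96, 108 or 120 h took the adjusted p of the slope difference to between 0.0507 and 0.113, and it was also lost on the deposited scale (adjusted p = 0.111) and with the control score in the model (adjusted p = 0.707).

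**Figure D3:**
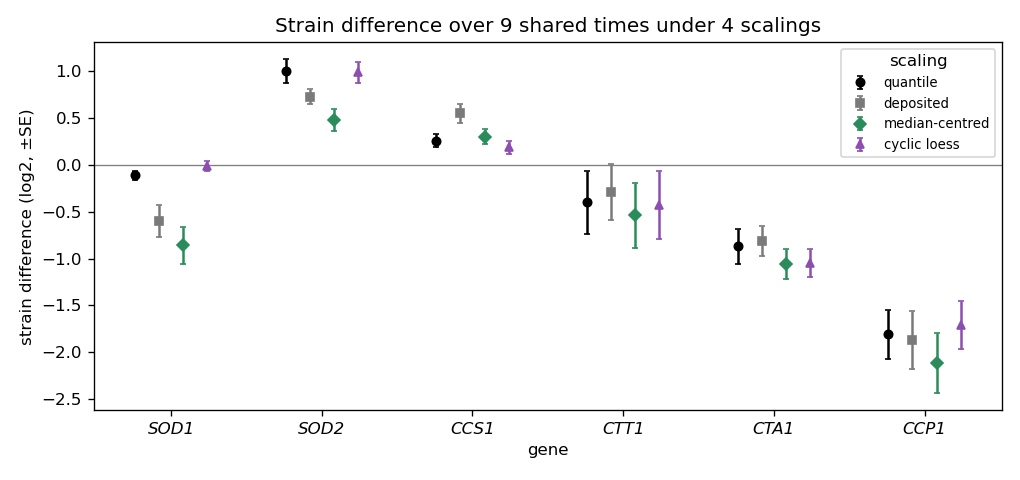
Strain difference (log2, sch9 mutant minus wild type) of the 6 genes in the limma fit with time blocks over the 9 shared times, with bars of 1 SE. Circles are quantile-normalized values, squares deposited values, diamonds median-centred values and triangles cyclic loess. SOD2, CCS1, CTA1 and CCP1 keep their direction, and SOD1 runs from -0.86 to -0.01.

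The 12 h arrays were compared with all later ones, with the strains averaged. With 1 array per strain at 12 h, the SE and p of these steps, and of the step differences below, hold only the spread of the later arrays. CTA1 was higher after 12 h by 2.88 (SE 0.29, adjusted p = 9.22e-08), CTT1 by 1.62 (SE 0.54, adjusted p = 0.0137), SOD2 by 1.13 (SE 0.16, adjusted p = 6.76e-06) and SOD1 by 0.19 (SE 0.08, adjusted p = 0.0375). CCS1 was lower, at -0.67 (SE 0.16, adjusted p = 0.00104). CCP1 at -0.16 did not pass (adjusted p = 0.656). Of all genes 64.0% passed this comparison, 28.9% upward and 35.1% downward, so the 5 of 6 that passed lie in a background where most genes moved. The CTT1 call was lost without the mutant's 12 h array (adjusted p = 0.138). The SOD1 call was lost without that array as well (adjusted p = 0.432), without any one of 48, 60, 72 or 84 h (adjusted p from 0.0502 to 0.0578), against 24 to 60 h alone (adjusted p = 0.0541), on the deposited scale (adjusted p = 0.0627) and after median centring (adjusted p = 0.324). Its sign turned with cyclic loess (-0.17). In the deposited values the CCS1 step was -0.50 and did not pass (adjusted p = 0.0519).

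The step after 12 h was set against each strain's own 12 h array as well. CCP1 was 0.83 higher after 12 h in the wild type and lower in the mutant (a step of -1.14), and these steps differed by -1.97 (SE 0.58, adjusted p = 0.0395), a call made for 8.55% of all genes, 3.87% in that direction. It was lost with median centring (adjusted p = 0.0507), against 24 to 60 h alone (adjusted p = 0.176) and when any one of 36, 48, 60, 72, 84, 96 or 108 h was left out (adjusted p from 0.0564 to 0.0705). SOD2 had steps of 0.67 in the wild type and 1.60 in the mutant, and CTA1 had steps of 3.69 and 2.06. Neither passed as different (adjusted p = 0.0825 for SOD2 and 0.0878 for CTA1), although both did without 24 h (0.0276 and 0.0233). SOD2, CTT1 and CTA1 had their lowest value at 12 h in both strains, as did 23.5% of all genes.

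The highest mutant value lay at 24 h for 5 of the 6 genes, all but CCS1, against 22.6% of all genes. For SOD1 the values at 24 and 36 h were both 13.63 after rounding. This count rests on 1 mutant array, the one with the highest 3' minus 5' score of the mutant series (1.06). In the wild type the 24 h value was the highest for SOD2 alone, against 15.6% of all genes. The wild-type maxima of SOD1 and CTA1 came at 36 h, that of CCP1 at 48 h and that of CTT1 at 60 h. In the deposited values CTA1 and CCP1 kept these times, but wild-type SOD1 was highest at 60 h (14.24) and CTT1 at 48 h (11.26). From 36 h on SOD2, CTA1 and CCP1 had strain ranges that did not overlap, which held for 37.0% of all genes.

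In late culture, from 36 h on, 4 of the 6 genes fell in the mutant: CCS1, CTT1, CTA1 and CCP1, the last at -0.13 per day (adjusted p = 0.0494). Of all genes 22.5% had a mutant slope that passed in that window, 11.5% falling. In the wild type SOD1 (-0.07, adjusted p = 0.0077), CCS1 (-0.09, adjusted p = 0.0328) and CTA1 fell and SOD2 rose, against 44.6% of genes passing, 20.7% falling and 23.9% rising. All slopes of this window were fitted to the quantile-normalized values alone. Deposited wild-type SOD1 stood at 13.98 at 36 h, 14.24 at 60 h and 14.01 at 120 h, with no fall from the first to the last of these. The slopes of 3 genes passed as different, all more negative in the mutant, those of SOD2, CCS1 and CTT1, against 29.7% of all genes, 16.0% more negative in the mutant. The CCS1 call was narrow (adjusted p = 0.0487). Its strain difference went from 0.23 at 36 h to -0.12 at 108 h, but from 0.32 to 0.36 in the deposited values. The wild-type 18S 3' signal and 3' to 5' score climbed over the same hours.

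The 6 genes did not move as 1 group. Across the 10 wild-type arrays the correlation of CTT1 with CTA1 was 0.91, and those of CCP1 with CTT1 and with CTA1 were both 0.93. In the 9 mutant arrays CTT1 and CTA1 correlated at 0.88, while CCP1 with CTA1 stood at -0.05 and CCP1 with CTT1 at 0.38. SOD2 and CCP1 correlated at 0.29 in the wild type and -0.40 in the mutant. These are descriptions over arrays of 1 time series each, in which the 12 h array lies far from the others.

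Genes with the most similar courses were looked up over all 19 arrays. Nearest to CTT1 were TSA2, a cytosolic peroxiredoxin gene (r = 0.963), ALD2, an aldehyde dehydrogenase gene (0.950), and GLO1, the glyoxalase I gene (0.938). Nearest to CTA1 were HFD1, a fatty aldehyde dehydrogenase gene (0.963), RGI1, a gene of respiratory growth (0.956), and RRT13 (0.954). Nearest to CCP1 were EHT1, an acyltransferase gene of ethyl ester synthesis (0.979), YEL073C (0.976) and SAC6, the actin-bundling fimbrin gene (0.972). These values pool both strains and so include the gap between them: within the 10 wild-type arrays SAC6 correlated with CCP1 at 0.60 and TSA2 with CTT1 at 0.73, and within the 9 mutant arrays at 0.94 and 0.99.

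Nearest to SOD2 were YBL113C (0.973), read by a probe set shared with other sequence and so uncertain, AIM2 (0.972) and MMS2, a ubiquitin-conjugating enzyme variant gene (0.971). Nearest to CCS1 were OLA1 (0.936), PTC7, a mitochondrial protein phosphatase gene (0.922), and CAP1, an actin-capping gene (0.915). For SOD1 they were RTK1 (0.923), YOL131W (0.921) and POS5, a mitochondrial NADH kinase gene (0.904), but in the deposited values these correlations were 0.214, 0.518 and 0.162, and with cyclic loess -0.074, -0.024 and -0.022. OLA1 also lost most of its likeness there, at 0.567, and with median centring, at 0.242. Within single strains the other genes named in these comparisons correlated at 0.83 or more. Apart from OLA1 and the genes nearest to SOD1, the correlation over all arrays was at least 0.831 under each scaling.

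Regulators known to act on these genes did not differ in 1 direction. Of 18 regulator genes 8 were higher in the mutant, 5 lower and 5 did not pass, with a median difference of 0.28 beside 0.03 over all genes. Over all genes 32.4% were higher and 26.8% lower. The balance depended on the scaling. In the deposited values 10 were higher and 4 lower (median 0.44, beside 0.17 over all genes). After median centring these were 6 and 5 (0.18, beside -0.09), and with cyclic loess 6 and 6 (0.19, beside -0.01). MSN4, a general stress activator of CTT1, was lower at -0.94 (adjusted p = 0.00249), while its partner MSN2 was higher at 0.65 (adjusted p = 0.00121). At 24 h MSN4 was 0.59 higher in the mutant, the 1 shared time at which it was higher. RIM15, a kinase that acts below Sch9 and upstream of Msn2, Msn4 and Gis1, was higher at 1.27 (adjusted p = 1.39e-05), and GIS1 was lower at -0.42 (adjusted p = 0.00222). ADR1, an activator of CTA1 and other glucose-repressed genes, was lower at all 9 times, by -0.96 on average (adjusted p = 3.23e-06). The listed regulators OAF1 (0.54, adjusted p = 0.000199) and PIP2 (0.28, adjusted p = 0.0249) went the other way and were higher. HAP4, the regulated subunit of an activator of respiratory genes, was lower at -0.70 (adjusted p = 0.00188), whereas HAP1, the heme-responsive activator, was higher at 1.1 at 9 of 9 times (adjusted p = 2.38e-06). HAP2 was higher as well, at 0.82 (adjusted p = 0.000193). HAP3 (-0.15, adjusted p = 0.43) and HAP5 (0.31, adjusted p = 0.0544) did not pass. For the oxidative stress factors, YAP1 was higher at 0.35 (adjusted p = 0.00821) and SKN7 lower at -0.32 (adjusted p = 0.0260); the first call was lost with median centring and the second in the deposited values. The copper regulators CUP2 (0.29, adjusted p = 0.0530) and MAC1 (-0.15, adjusted p = 0.116) did not pass. After 12 h 14 of the 18 were higher and 1 lower, against 28.9% and 35.1% of all genes, with ADR1 higher by 2.65 and HAP4 by 2.69.

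Heme is the cofactor of Ctt1, Cta1 and Ccp1, and its synthesis genes were mostly lower in the mutant. Of 8 such genes 7 were lower, none higher and 1 did not pass, against 26.8% of all genes lower, and the median difference was -0.91. HEM13, the oxygen-dependent coproporphyrinogen oxidase gene, stood at -1.43 (adjusted p = 3.27e-05) and HEM1, the first enzyme gene of the pathway, at -1.32 (adjusted p = 1.57e-05), each lower at 9 of 9 times. As many, 7, were lower with median centring and with cyclic loess, and in the deposited values 6 were lower and 1 higher. HEM13 was also lower after 12 h, by -1.28 (adjusted p = 1.78e-08).

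Genes that supply the metals of Sod1 and Sod2 went both ways. Of 10 measured copper genes (of 11 listed) 4 were higher and 4 lower, near the 32.4% and 26.8% of all genes, and 3 were higher and 6 lower after median centring. Among them were CCC2, a copper pump of the secretory pathway, at 1.28 (adjusted p = 3.87e-05) and CTR3, a copper uptake gene, at -0.73 (adjusted p = 3.68e-05). CRS5, a metallothionein gene, was 2.85 higher after 12 h (adjusted p = 3.37e-16). Of 6 genes for manganese and mitochondrial metal supply 3 were higher and 1 lower, beside the same 32.4% and 26.8%, and after median centring 2 were higher and 2 lower. MTM1, a mitochondrial carrier needed for manganese loading of Sod2, was higher at 0.34 (adjusted p = 0.00103), a call lost with median centring, and SMF1, a manganese transporter, was higher at 0.86 (adjusted p = 0.00146). BSD2, which sends Smf1 for degradation, was 1.2 higher after 12 h (adjusted p = 7.77e-07).

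Around CCP1, 7 genes for cytochrome c and for Ccp1 maturation gave 1 higher, 3 lower and 3 that did not pass, so the 4 that passed lie near the 59.2% of all genes. CYC7, the minor cytochrome c isoform gene, was lower at -1.88 (adjusted p = 0.000695) and AFG3, a subunit of the protease that handles the Ccp1 precursor, at -0.48 (adjusted p = 0.00168). CYC3, the heme lyase for cytochrome c, was 0.95 higher after 12 h (adjusted p = 1.48e-06).

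Around CTA1, 13 genes were listed for peroxisomal fatty acid oxidation, with the mitochondrial CRC1 among them. They gave 6 higher, 4 lower and 3 that did not pass in the strain comparison, where 32.4% of all genes were higher and 26.8% lower. CRC1, a mitochondrial carnitine carrier gene, was lower at -1.37 (adjusted p = 7.54e-05) and POT1, the thiolase gene, higher at 1.75 (adjusted p = 8.94e-05). After 12 h 12 of the 13 were higher, against 28.9% of all genes, with CAT2, the carnitine acetyltransferase gene, at 3.30 (adjusted p = 2.86e-12).

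Around CTT1, 19 general stress targets gave 1 higher, 8 lower and 10 that did not pass, against 32.4% of all genes higher and 26.8% lower, and this balance depended on the scaling: 14 were lower on the deposited scale and 16 after median centring. GSY2, a glycogen synthase gene, was lower at -0.99 (adjusted p = 0.000138) and SPI1, a cell wall gene, at -0.44 (adjusted p = 0.000602). After 12 h 18 of the 19 were higher, against 28.9% of all genes, HSP26 by 2.10 (adjusted p = 3.69e-15). At 24 h the single differences of the 19 ran from -0.12 to 3.17. They rest on 1 mutant array, the one with the highest 3' minus 5' score of the mutant series (1.06). The share of all genes higher there was not counted, so no balance is read from that time. The step difference, mutant minus wild type, had a median of 0.85 (from -0.34 to 2.47), beside 0 over all genes. Of 16 genes of thiol-based peroxide defence 4 were higher, 3 lower and 9 did not pass, beside 32.4% and 26.8% of all genes, and after median centring 1 was higher and 8 were lower. GSH1, the first enzyme of glutathione synthesis, was lower at -0.75 (adjusted p = 2.75e-05) and TRR1, the cytosolic thioredoxin reductase gene, at -0.54 (adjusted p = 0.000488). GPX1, a phospholipid hydroperoxide peroxidase gene, was 3.22 higher after 12 h (adjusted p = 1.21e-11). The median strain difference of the 16 was 0.01, but -0.34 with median centring.

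**Figure D4:**
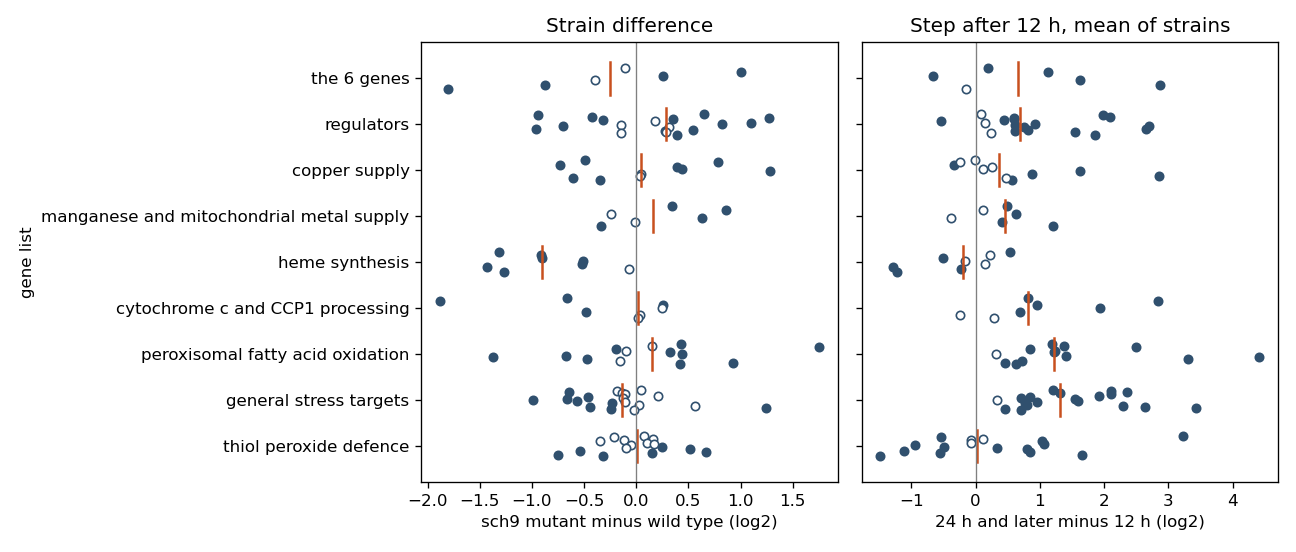
Strain difference (left, log2, sch9 mutant minus wild type) and step after 12 h (right, log2, mean of both strains) for the 6 genes and for each gene of 8 related lists. Filled points passed at an adjusted p under 0.05, open points did not, and the orange line is the median of each list. Heme synthesis genes have a median strain difference of -0.91, and the lists for peroxisomal fatty acid oxidation and general stress have median steps of 1.22 and 1.31.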

How the data were processed

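The authors deposited 1 table of probe set summaries on a log2 scale (5814 probe sets, 19 arrays, values from 5.76 to 15.02); software, background correction and normalization: not given in the sources used here. Column medians ran from 9.44 to 10.05. Control probe sets (51) and 265 probe sets without a named gene were left out, and 5498 were matched by gene identifier to the reference annotation R64, with 12 symbols updated. Where a gene had more than 1 probe set (47 genes), the brightest on average stood for it, giving 5449 genes, which were quantile-normalized.

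Limma 3.58.1 in R 4.3.3 fitted a strain term with time blocks (18 arrays, 8 residual degrees of freedom), strain-specific slopes in log2 per day (15), and a step after 12 h with its interaction with strain (15). The trend was also fitted from 36 h on (11). Control probe sets were compared with an exact permutation test of signs, two-sided, whose smallest p is 0.00391. On simulated data with 5449 genes, 82.0% of planted strain differences of 0.5 and 98.5% of those of 1 were found, 73.5% of trend differences of 0.3 per day, and 90.0% of steps of 1 after 12 h. Outside the planted genes 26 were called for the strain difference. The simulated noise was independent, with the spread left after strain and time were fitted, and carried no time course. These shares therefore need not hold for slopes and steps in the real time courses.

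The 6 genes, the 8 lists and the tests were chosen with earlier results of these data known. Named besides the 6 genes were the 3 nearest genes by correlation, regulators, and in each other list the 2 genes with the smallest p for the strain difference and the 1 for the step. Alternatives were other scalings, dim genes left out (lower 25%), other time windows, log2 of hours, no time blocks, an intensity trend with a robust prior, the 3' minus 5' control score as covariate, and each time left out. The 12 to 48 h window was added after the data were seen.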

Additional observations from a re-analysis of the deposited data

Results flagged for a closer look

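In the time series of 1 strain, single arrays stood far from the others for each of the 6 genes, measured by the gap to the next value over the whole range. The rule is set so that about 1 in 20 series of independent values gives a gap this large. These series are ordered time courses, so that rate does not hold for them. Every one was a 12 h array. In the wild type these were CTT1 at 9.51, CTA1 at 7.25 and CCP1 at 11.91, each the lowest, and CCS1 at 9.97, the highest. In the mutant they were SOD1 at 13.30 and SOD2 at 11.46, both the lowest. On the deposited scale mutant SOD1 was lowest at 48 h, at 12.96 against 13.24 at 12 h. Wild-type CCS1 was highest there at 24 h, at 9.73 against 9.60 at 12 h. The 24 h mutant value of CTT1, at 13.00, did not meet this rule.

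Strain courses of CCP1 differed in the test itself, with a slope difference of -0.48 per day and a difference of the steps after 12 h of -1.97. Both calls were lost under several of the alternatives, as described above, most single times left out among them.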

How the results depend on the processing

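Of the 114 strain differences of the 6 genes under alternatives, 100 kept direction and side of the threshold, 7 lost the call, 4 gained it and 3 turned. Counts of genes past the threshold moved as follows; the cause was not tested. The strain difference gave 3225 genes, and 228 from 12 to 48 h, where fewer arrays entered. It gave 2335 genes with no replicate block (time points), which ended the calls of CCS1 and CTA1; the labels carry no replicate numbers, so pairing is by time alone. With single times left out it gave 2878 to 3478. The wild-type trend gave 614 genes, 374 with dim probe sets left out, 2430 from 36 h on, 1285 on log2 of hours, and 306 to 2262 with single times left out. The mutant trend gave 546, 1228 from 36 h on, 1440 on log2 of hours, and 282 to 1564. The trend difference gave 156, 1617 from 36 h on, 280 on log2 of hours, and 58 to 1732. With the 3' minus 5' control score in the limma model, 0 genes passed for the wild-type trend (574 at an unadjusted p under 0.05) and 0 for the trend difference (435); that score correlated with time at 0.97 over the 10 wild-type arrays. The step difference after 12 h gave 466, 269 with median centring, 288 against 24 to 60 h, and 317 to 989; it has no value without a 12 h array. The step after 12 h gave 3487, and 2766 to 3784 with arrays left out.

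Signs turned in these cases. The CTT1 strain difference was 0.019 before 84 h, 0.58 with the score and 0.47 from 12 to 48 h. HAP3 (0.10) and MAC1 (0.13) turned in the deposited values, HAP5 with the score (-0.016) and from 12 to 48 h (-0.12), and CUP2 from 12 to 48 h (-0.049). Wild-type slopes turned for SOD1 on the deposited scale (0.11) and after median centring (0.18), for SOD2 (-0.18), CTT1 (-0.72) and CCP1 (-0.14) with the score, and from 36 h on for CTA1 (-0.25) and CCP1 (-0.065); with single times left out CTA1 ran from -0.197 to 0.368 and CCP1 from -0.019 to 0.099, negative without 12 h. Mutant slopes turned for SOD1 in the deposited values (-0.10), with median centring (-0.13), with cyclic loess (-0.09), from 36 h on (-0.009) and without 12 h (-0.016 to 0.041 over single times left out), and for SOD2 from 36 h on (-0.075) and without 12 h (-0.088 to 0.233). The mutant slope of CTA1 was 0.09 in the deposited values, 0.064 with median centring, 0.057 with cyclic loess, 0.18 on log2 of hours, and -0.412 to 0.137 with single times left out. Slope differences turned for SOD1 (deposited -0.21, median centring -0.31, loess -0.035), SOD2 (deposited -0.055, median centring -0.15, loess -0.014, 36 h on -0.265, single times left out -0.157 to 0.078, negative without 12 h) and CTT1 (0.30 with the score). Steps turned for SOD1 with loess (-0.17) and for CCP1 in the deposited values (0.18), with median centring (0.028), against 24 to 60 h (0.042) and without the mutant's 12 h array (-1.137 to 0.828 over arrays left out). Step differences turned for SOD1 (deposited -0.826, median centring -0.637, loess -0.037) and for CCS1 (median centring 0.016, against 24 to 60 h 0.058, single times left out -0.042 to 0.042).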
